A study of Mus musculus with 12 samples.

Results

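The genes described here make, sense, move and export cholesterol, together with 3 genes of fatty acid synthesis. They were taken by name from a list of 35, and all 35 stood among the 23951 rows of each of the 3 deposited tables. The tables set cortex from C57BL/6 mice that lack 1 or both copies of Mir137, which encodes a microRNA abundant in brain, beside cortex of wild type mice (WT). The mutants are the heterozygotes (Het, labelled miR-137/+) and the knockouts (KO, labelled miR-137 KO). Each genotype had 4 RNA-seq libraries, 12 in all, which the authors pooled into 1 RPKM value (reads per kilobase of transcript, scaled to the mapped reads of the library) per genotype and table. The sources used here give neither the age and sex of the mice, nor how the allele was made, nor which animal each of the 4 libraries was made from. The titles number the libraries of every genotype 1-1, 1-2, 2-1 and 2-2 without saying what either number stands for. If libraries share animals, the p-values mix technical spread with that between animals. The list holds 17 synthesis enzymes, 8 of the mevalonate part and 9 of the sterol part, 5 genes of sterol sensing, 3 of intracellular transport, 7 of export and turnover, and 3 of fatty acid synthesis. It holds no lipoprotein receptor, so uptake was read from 37 further genes of the pathway.

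Cells build cholesterol from acetyl-CoA through mevalonate, isoprenoids and squalene, and then trim the ring sterol lanosterol step by step. When sterols in the endoplasmic reticulum run low, SCAP escorts the transcription factors SREBP-1 and SREBP-2 (genes Srebf1 and Srebf2) to the Golgi for cleavage, and the freed factors turn on the synthesis genes; the INSIG proteins hold SCAP back when sterols are plentiful. The brain makes its own cholesterol because plasma lipoproteins do not cross the blood-brain barrier. Myelin holds most of it, astrocytes ship it to neurons on APOE particles, and neurons clear it by hydroxylation with CYP46A1.

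A gene is said here to rise or fall where the authors' deposited table gives it an adjusted p below 0.05. Because each genotype is 1 pooled value, no SD can be set beside a level, and the depth behind it is unknown. Folds are ratios of RPKM, and a log2 fold is the difference between 2 values of log2(RPKM + 1), a scale on which low genes seem to change less than they do. Het and KO were compared with the same WT libraries, so their 2 sets of values are not independent. WT and Het levels below come from the Het against WT table and KO levels from the KO against WT table; the same genotype differed between tables by at most 0.686% for any member. The neuronal genes Snap25 and Slc17a7 stood at 818 and 574 RPKM in WT in the deposited Het against WT table, and of 7 neuronal genes 0 were called in Het (1 had an unadjusted p below 0.05), while in KO 1 fell and 1 rose. Slc17a7 fell to 393 RPKM in KO and Tubb3 rose from 430 to 607 RPKM (adjusted p 0.000987 and 0.00506 by the authors' deposited KO against WT table). The Mir137 row is listed at 0 in all 3 genotypes and so does not check the labels. Other markers moved with genotype: 8 of 8 genes of striatal projection neurons rose in Het and in KO, led by Ppp1r1b and Penk, from a summed 44.6 RPKM in WT to 428 and 446. All 8 choroid plexus genes fell, led by Ttr and Folr1, from 2067 RPKM in WT to 290 in Het and 87.6 in KO, and of 7 meningeal genes, with Igf2 and Dcn the most abundant, 4 fell in Het and 2 in KO. Of 6 endothelial genes, 3 fell and 0 rose in Het, while in KO Cldn5 and Slco1c1, the most abundant, rose and Slco1a4 and Ly6c1 fell. The part of these shifts in the values that follow was not tested. In tissue RNA, fewer cells of a type and less RNA per cell cannot be told apart.

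Synthesis enzymes rose in both mutant genotypes, 5 of 16 measured in Het and 6 in KO, most of them in the mevalonate part. In Het 5 of the 34 members with at least 1 RPKM in either genotype rose and 0 fell, and all 5 were synthesis enzymes (Acat2, Mvd, Idi1, Fdps and Nsdhl). Over all 14159 genes tested in that table, 3.95% rose and 5.06% fell. Without adjustment, 14 members had p below 0.05 and a higher value and 0 a lower one in the authors' test. In KO against WT, 7 members rose (Acat2, Mvk, Pmvk, Mvd, Fdps, Sqle and Insig1) and 1 fell (Insig2). Of all 14059 genes tested against WT, 6.72% rose and 7.68% fell. The median log2 fold of the 16 measured enzymes was 0.30 in Het and 0.33 in KO. Over all genes of at least 1 RPKM the median was 0.01 in each comparison, and over the 18 other members it was 0.05 in Het and 0.03 in KO. Acat2, Mvd and Fdps rose in both genotypes.

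Levels spanned 3 orders of magnitude across the list. Apoe, the lipid carrier of astrocytes, led with 1333 RPKM in WT in the authors' deposited table, followed by the fatty acid desaturase Scd2 at 263 RPKM. Among the enzymes Fdps was highest and Hsd17b7 lowest, at 65.3 and 7.72 RPKM in the deposited WT values. The oxysterol receptor gene Nr1h3 was the lowest of the measured members, at 0.967 RPKM in WT in the authors' deposited table. Hmgcs1, which makes HMG-CoA, is listed at 0 in all 3 genotypes and was not tested. That listing may be a failed estimate, and Hmgcs1 is left out of every count of measured genes.

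**Figure D1:**
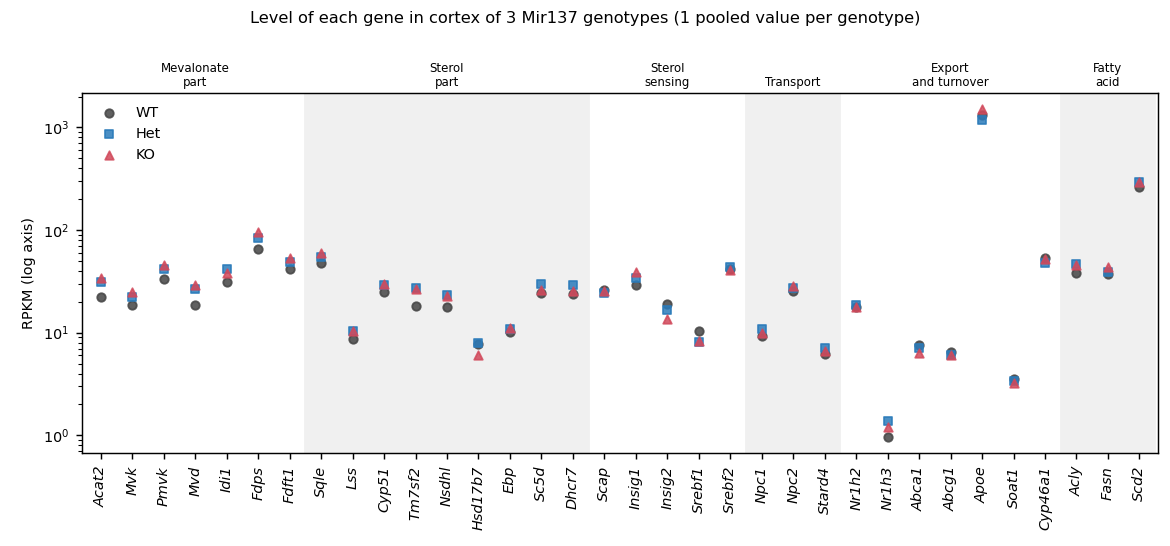
RPKM of 34 members on a log axis in WT (circles), Het (squares) and KO (triangles), 1 pooled value per genotype, ordered by role; Hmgcs1, listed at 0, is not drawn. Genotypes lie close together for each gene beside the range between genes, from 0.967 RPKM for Nr1h3 to 1333 for Apoe in WT.

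The mevalonate part turns acetyl-CoA into farnesyl units and squalene. All 7 measured enzymes had higher values than WT in both mutant genotypes; 4 rose in Het and 5 in KO. Acat2, the cytosolic thiolase that joins the first acetyl units, stood at 22.4 RPKM in WT, 31.2 in Het and 34.5 in KO in the authors' deposited tables. Its rise was 1.39-fold in Het (adjusted p 0.00520) and 1.54-fold in KO (adjusted p 0.000987, the smallest the KO against WT table holds). Mvk, the kinase that phosphorylates mevalonate, went from 18.5 RPKM to 22.5 in Het and 25.1 in KO, and only the KO value passed the authors' test (adjusted p 0.245 and 0.0165). 

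Pmvk, which adds the next phosphate, was listed at 33.0, 41.3 and 46.0 RPKM in WT, Het and KO in the authors' deposited tables (adjusted p 0.109 in Het and 0.00560 in KO). Mvd, the decarboxylase that yields isopentenyl diphosphate, had the largest rise of any member, 1.55-fold in KO and 1.41-fold in Het, from 18.8 RPKM to 29.2 and 26.5 in the authors' deposited tables (adjusted p 0.000987 and 0.00520). These 4 enzymes shared 1 order of levels, WT lowest and KO highest.

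Idi1, the isomerase that supplies dimethylallyl diphosphate, broke that order: it rose in Het, from 31.3 to 42.2 RPKM, and stood at 38.3 in KO in the authors' deposited tables (adjusted p 0.00520 and 0.0994). Fdps, which makes farnesyl diphosphate for sterols, dolichol and prenylated proteins, rose from 65.3 RPKM to 83.0 in Het and 96.3 in KO (adjusted p 0.0362 and 0.000987 in the authors' deposited tables). Fdft1, squalene synthase, the first step committed to sterols, had values of 41.4, 49.0 and 53.4 RPKM without passing the authors' test (adjusted p 0.782 and 0.502). Its exons share 18.3% of their bases with those of Ctsb on the other strand, and the kit used does not mark strand, so reads there cannot be assigned to 1 gene. Fdps likewise shares 26.7% of its exonic bases with Gm43738, an annotated gene on the same strand.

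The sterol part closes squalene into lanosterol and converts that to cholesterol. All 9 enzymes had higher values in Het than in WT and 8 of 9 in KO, but 1 passed the authors' test in each: Nsdhl in Het and Sqle in KO. Sqle, the squalene epoxidase that controls entry to this part, stood at 47.3 RPKM in WT, 54.8 in Het and 60.3 in KO (adjusted p 0.281 and 0.0336 in the authors' deposited tables). Adjusting p over the 3 comparisons together took Sqle in KO to 0.0514, past the threshold. Nsdhl, which acts in removal of the methyl groups at carbon 4, rose 1.30-fold in Het to 23.1 RPKM and stood at 22.6 in KO, from 17.9 in WT, in the authors' deposited tables (adjusted p 0.0388 and 0.0687).

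Tm7sf2, a sterol C14 reductase, had the largest log2 fold of any member in Het, 0.56, but did not pass: 18.4, 27.5 and 26.7 RPKM in WT, Het and KO (adjusted p 0.201 in both of the authors' deposited tables). It shares 12.1% of its exonic bases with Vps51 on the same strand. Lss, lanosterol synthase, and Cyp51, the lanosterol demethylase, lay 1.18-fold to 1.21-fold above WT in both genotypes. The late enzymes Sc5d and Dhcr7 were higher in Het than in KO, at 30.1 and 29.4 RPKM in Het, 26.3 and 25.3 in KO and 24.2 and 23.7 in WT in the authors' deposited tables. For Dhcr7, the reductase of the last step, the adjusted p was 0.0828 in Het and 0.708 in KO. Ebp, the sterol isomerase, stood at 10.2, 11.0 and 11.1 RPKM.

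Hsd17b7, the keto-reductase that works beside Nsdhl, was the only enzyme with a lower value than WT, in KO alone: 7.72 RPKM in WT, 7.86 in Het and 6.10 in KO in the authors' deposited tables. Neither comparison with WT passed (adjusted p 0.962 in Het and 0.0874 in KO).

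**Figure D2:**
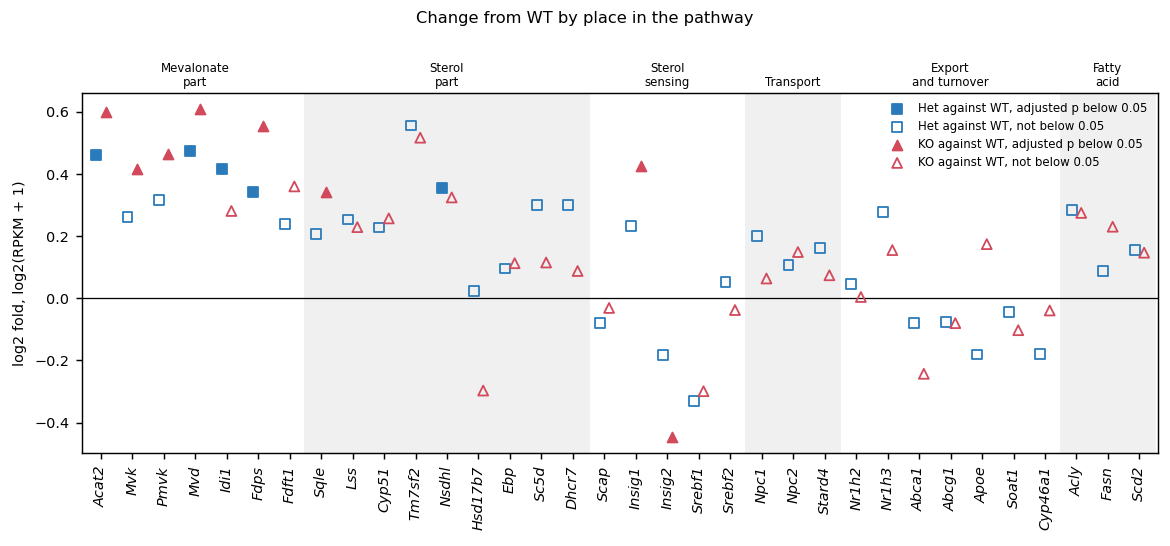
Log2 fold over WT, log2(RPKM + 1), of 34 members in pathway order; squares are Het, triangles are KO, and filled marks have an adjusted p below 0.05 in the authors' deposited tables. Filled marks sit in the mevalonate part, at Sqle and Nsdhl, and at Insig1 and Insig2, which lie on either side of 0 in KO.

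Among the sensors, Insig1 and Insig2 went opposite ways in KO. Both encode proteins that retain SCAP in the endoplasmic reticulum; Insig1 is itself a known SREBP target gene. Insig1 rose from 29.1 RPKM in WT to 39.4 in KO, with 34.4 in Het (adjusted p 0.00729 in KO and 0.220 in Het by the authors' deposited tables). Insig2 fell from 19.0 to 13.7 RPKM in KO, 1.39-fold, with 16.6 in Het (adjusted p 0.00729 and 0.450 by the authors' deposited tables). Srebf2, the main SREBP of sterol genes, was listed at 42.0, 43.6 and 40.9 RPKM in WT, Het and KO, and Scap at 25.8, 24.3 and 25.2. Srebf1, which favours fatty acid genes, stood at 10.4 RPKM in WT and at 8.06 and 8.26 in Het and KO in the authors' deposited tables (adjusted p 0.310 and 0.338). The messenger levels do not show how much SREBP protein was cleaved.

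None of the 10 transport, export and turnover genes passed the authors' test in either mutant genotype. Over all genes tested, 3.95% rose and 5.06% fell in Het, and 6.72% rose and 7.68% fell in KO. A count of 0 of 10 lies near those shares. At an unadjusted p below 0.05 there was 1 of the 10, Abca1 in KO. Npc1 and Npc2, which move cholesterol out of lysosomes, and the sterol carrier gene Stard4 lay 1.05-fold to 1.16-fold above WT. Abca1, the pump that loads cholesterol onto APOE, was listed at 7.61 RPKM in WT, 7.16 in Het and 6.28 in KO (adjusted p 0.792 and 0.120 in the authors' deposited tables). Its partner pump Abcg1 stood at 6.47, 6.10 and 6.08 RPKM. Both pumps are targets of the oxysterol receptors LXR-beta (Nr1h2), at 17.8, 18.4 and 17.9 RPKM, and LXR-alpha (Nr1h3), at 0.967, 1.39 and 1.19 RPKM.

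Apoe had its highest value in KO and its lowest in Het: 1333 RPKM in WT, 1176 in Het and 1506 in KO in the authors' deposited tables (adjusted p 0.592 and 0.489). Cyp46a1, the neuronal 24-hydroxylase, stood at 53.8, 47.5 and 52.4 RPKM, and Soat1, which esterifies cholesterol for storage, at 3.54, 3.41 and 3.23.

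The fatty acid genes share SREBP control and the acetyl-CoA supply with sterol synthesis. Acly, which makes cytosolic acetyl-CoA from citrate, had 37.8 RPKM in WT, 46.3 in Het and 46.0 in KO (adjusted p 0.0778 and 0.106 in the authors' deposited tables). Fasn, the fatty acid synthase, stood at 37.0, 39.4 and 43.6 RPKM and Scd2 at 263, 293 and 292. All 3 genes lay above WT in both genotypes and 0 of 3 passed the authors' test, with Acly alone at an unadjusted p below 0.05, in Het and in KO. For so few genes, 0 passing lies near the shares over all genes given above.

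Of the 37 further pathway genes, 36 were tested in each comparison with WT. Over all genes tested, 3.95% rose and 5.06% fell in Het, and 6.72% rose and 7.68% fell in KO. Among the further genes, 4 rose and 3 fell in Het, and 4 rose and 1 fell in KO, counts that were not tested against those shares. Msmo1, the C4 methyl oxidase that stands just before Nsdhl, rose in both, from 49.1 RPKM in WT to 61.8 in Het and 67.4 in KO (adjusted p 0.0446 and 0.00323 in the authors' deposited tables).

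The lipoprotein receptor genes Vldlr, Lrp1 and Lrp8 did not pass in either genotype and lay within 1.14-fold of WT in the authors' deposited tables. Lpl, a lipase that frees fatty acids from lipoproteins, rose from 55.1 RPKM to 77.5 in Het and 73.3 in KO (adjusted p 0.00135 and 0.0134 in the authors' deposited tables). Elovl5, which lengthens fatty acids, rose in Het and Scd1, a desaturase, in KO, to 46.8 and 35.2 RPKM from 36.2 and 28.1.

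Genes that fell included Ch25h, the enzyme of 25-hydroxycholesterol, an oxysterol that holds SREBP processing back: 1.99 RPKM in WT, 0.221 in Het and 0.550 in KO in the authors' deposited tables (adjusted p 0.00764 and 0.000987). Ch25h is known from macrophages and microglia, and the summed level of 10 microglia markers was 484 RPKM in WT, 363 in Het and 355 in KO. Of those markers, with Ctss and C1qb the most abundant, 5 fell and 2 rose in each genotype; their part in the change of Ch25h was not tested. In Het, Clu, a lipid carrier of astrocytes, fell from 395 to 295 RPKM and Rxra, a partner receptor of the LXRs, from 5.63 to 3.78 (adjusted p 0.0171 and 0.00244 by the authors' deposited table). In KO, Clu stood at 322 RPKM and Rxra at 4.37 (adjusted p 0.112 and 0.0762 by the authors' deposited table).

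Set against each other, KO and Het did not differ in any member by the authors' test: 0 of 34 rose and 0 fell. Cuffdiff 2.2.1 is listed in the submitters' processing notes, but the sources used here do not state its role. Over all 14062 genes tested, 0.917% were higher in KO and 0.953% lower. At an unadjusted p below 0.05 there were 2 members, Apoe, 1.28-fold higher in KO, and Hsd17b7, 1.29-fold lower, which missed the threshold after adjustment (0.372 and 0.281 in the authors' deposited table). For the 16 enzymes the median difference between KO and Het was 0.02 on the log2 scale, and their values ran from -0.32 (Hsd17b7) to 0.21 (Fdps). The calls made against WT in 1 genotype only, such as Mvk, Pmvk, Sqle and Insig1 in KO or Idi1 and Nsdhl in Het, were not called different between the genotypes.

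Myelin markers moved otherwise. Oligodendrocytes use much of the brain's newly made cholesterol, and the summed level of 12 myelin and oligodendrocyte genes was 1187 RPKM in WT, 1625 in Het and 942 in KO. In Het 4 of 12 rose, in KO 4 of 12 fell, and in KO against Het 9 of 12 were lower. Mbp, a major myelin protein, stood at 640 RPKM in WT, 907 in Het and 461 in KO in the authors' deposited tables (adjusted p 0.128 for Het against WT and 0.0158 for KO against WT). For KO against Het, Mbp had an adjusted p of 0.00517 in the authors' deposited table. The summed level of the 16 enzymes was 414 RPKM in WT, 519 in Het and 541 in KO. By summed level, enzymes and myelin genes both lay above WT in Het, and in KO the enzymes lay above and the myelin genes below. Of 8 genes of oligodendrocyte precursors, among which Olig1 and Pdgfra were most abundant, Gpr17 rose in Het and in KO, from 16.8 RPKM to 35.1 and 26.8 in the authors' deposited tables (adjusted p 0.00135 and 0.000987). Astrocyte markers, with Aldoc and Slc1a2 the most abundant, held 1 rise and 3 falls of 10 in Het and 1 fall in KO. The part of changed cell types in the enzyme values was not tested.

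**Figure D3:**
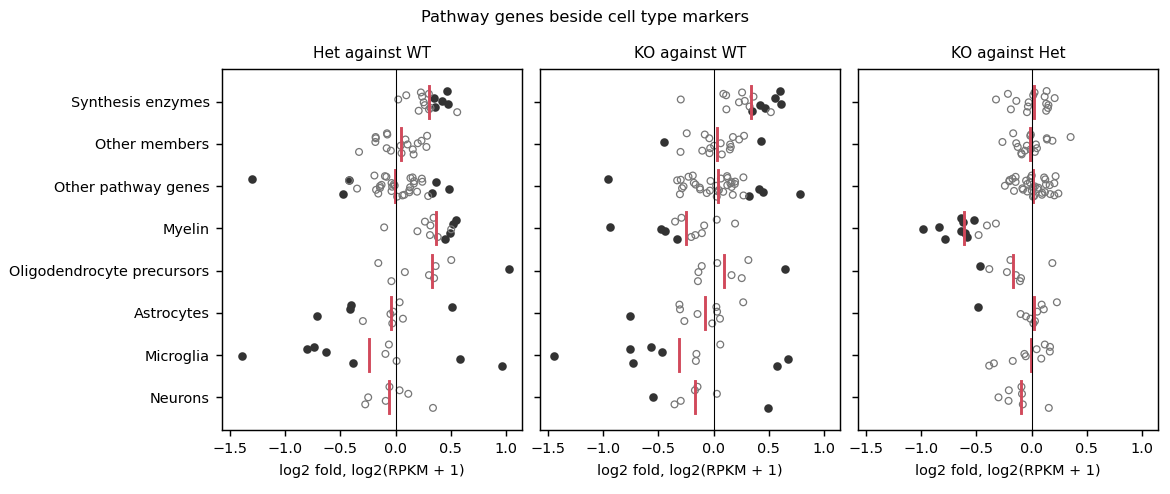
Log2 fold, log2(RPKM + 1), of each gene in 8 groups for the 3 comparisons; filled points have an adjusted p below 0.05 in the authors' deposited tables and red bars are medians. The median of the synthesis enzymes lies at 0.30, 0.33 and 0.02, and that of the myelin genes at 0.36, -0.25 and -0.61.

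Transcript length moved with the folds as well. Over all genes of at least 1 RPKM with a length in the annotation, genes were divided by length into 10 bins. The KO median was 0.19 for the shortest transcripts and -0.09 for the longest, and the Het median 0.14 and -0.09. The enzymes have a median transcript of 1962 nt, against 3038 nt over all genes and 4363 nt (4362.5) over the other members. Taken relative to the median of their own length bin, the enzymes had a median log2 fold of 0.27 in Het and 0.29 in KO, and 15 of 16 lay above their bin in each. The other members had 0.08 and 0.06.

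**Figure D4:**
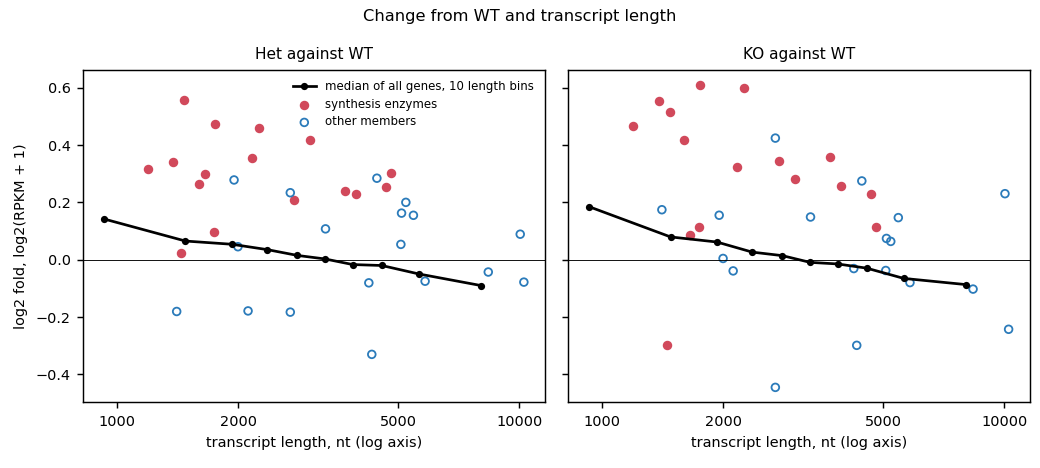
Log2 fold over WT, log2(RPKM + 1), against transcript length on a log axis for synthesis enzymes (filled) and other members (open), with the median of all genes in 10 length bins as a line. The line falls from 0.14 to -0.09 in Het and from 0.19 to -0.09 in KO, and 15 of 16 enzymes lie above it in each.

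Promoter sequences were set beside the values because several neighbours in the pathway rose together. SREBPs bind sterol regulatory elements next to the factors NF-Y and Sp1. RefSeq promoters on GRCm38.p6, 250 bases before to 50 after a start site, were matched for 28 of the 35 members; Fdps, Fdft1, Sqle, Npc1, Stard4, Abcg1 and Scd2 were not matched. The NF-Y box CCAAT, searched on both strands, was present for 13 of 14 matched synthesis enzymes (92.9%) and 9 of 14 other members (64.3%), where 42.8% of the 10119 genes of at least 1 RPKM in the table hold it. By promoter rather than gene, 13 of 17 promoters of the enzymes, 10 of 22 of the other members and 37.4% of all 32851 hold the box. The Sp1 box GGGCGG was present for 13 of 14 enzymes, 10 of 14 other members and 69.3% of the genes of at least 1 RPKM. The E-box CACGTG was present for 3 of 14 enzymes, 3 of 14 other members and 11.6% of those genes. One strict form of the sterol regulatory element, TCACNCCAC, matched 1 member, Hmgcs1, and 1.39% of those genes. A match is a run of letters and does not show that a factor binds.

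The promoters of 5 enzymes that rose are shown, with NF-Y boxes on either strand (CCAAT or ATTGG) in capitals. Pmvk, which also rose and was matched to 2 promoters, holds a box at -136 bases from a start site and is not shown. Mvk holds 5 boxes, Nsdhl 4, Mvd 2 and Idi1 2, while Acat2 holds 0, although it had the second highest log2 fold in KO.
Mvk (chr5:114444019-114444318, + strand): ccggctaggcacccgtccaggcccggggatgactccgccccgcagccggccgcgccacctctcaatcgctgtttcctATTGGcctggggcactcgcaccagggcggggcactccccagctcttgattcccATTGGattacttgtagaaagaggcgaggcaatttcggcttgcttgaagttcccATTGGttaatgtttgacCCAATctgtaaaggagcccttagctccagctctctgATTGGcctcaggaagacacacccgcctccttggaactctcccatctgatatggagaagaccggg
Mvd (chr8:122443373-122443672, - strand): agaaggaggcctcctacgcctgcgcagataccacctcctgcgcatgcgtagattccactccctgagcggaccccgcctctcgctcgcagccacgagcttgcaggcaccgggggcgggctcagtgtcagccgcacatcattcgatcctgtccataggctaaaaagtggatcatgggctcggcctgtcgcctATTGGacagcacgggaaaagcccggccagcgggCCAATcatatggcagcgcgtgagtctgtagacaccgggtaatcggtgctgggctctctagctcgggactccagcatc
Idi1 (chr13:8885356-8885655, + strand): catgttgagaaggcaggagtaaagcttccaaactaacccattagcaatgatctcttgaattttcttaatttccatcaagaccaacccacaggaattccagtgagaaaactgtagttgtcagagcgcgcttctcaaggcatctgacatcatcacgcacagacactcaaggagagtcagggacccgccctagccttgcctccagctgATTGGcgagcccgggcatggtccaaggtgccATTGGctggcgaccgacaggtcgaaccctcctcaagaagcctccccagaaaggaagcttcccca
Nsdhl (chrX:72918271-72918570, + strand): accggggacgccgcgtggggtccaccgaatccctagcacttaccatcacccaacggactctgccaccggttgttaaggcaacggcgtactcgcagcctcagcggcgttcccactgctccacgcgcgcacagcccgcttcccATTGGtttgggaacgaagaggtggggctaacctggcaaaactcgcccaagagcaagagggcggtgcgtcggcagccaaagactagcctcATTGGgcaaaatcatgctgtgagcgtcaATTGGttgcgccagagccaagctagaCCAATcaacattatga
Acat2 (chr17:12960676-12960975, - strand): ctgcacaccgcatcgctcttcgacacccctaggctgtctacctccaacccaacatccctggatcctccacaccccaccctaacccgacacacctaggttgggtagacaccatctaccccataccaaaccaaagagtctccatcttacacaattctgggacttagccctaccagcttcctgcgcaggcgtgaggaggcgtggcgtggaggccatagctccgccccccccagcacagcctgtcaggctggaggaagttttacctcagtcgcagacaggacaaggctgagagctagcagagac

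**Figure D5:**
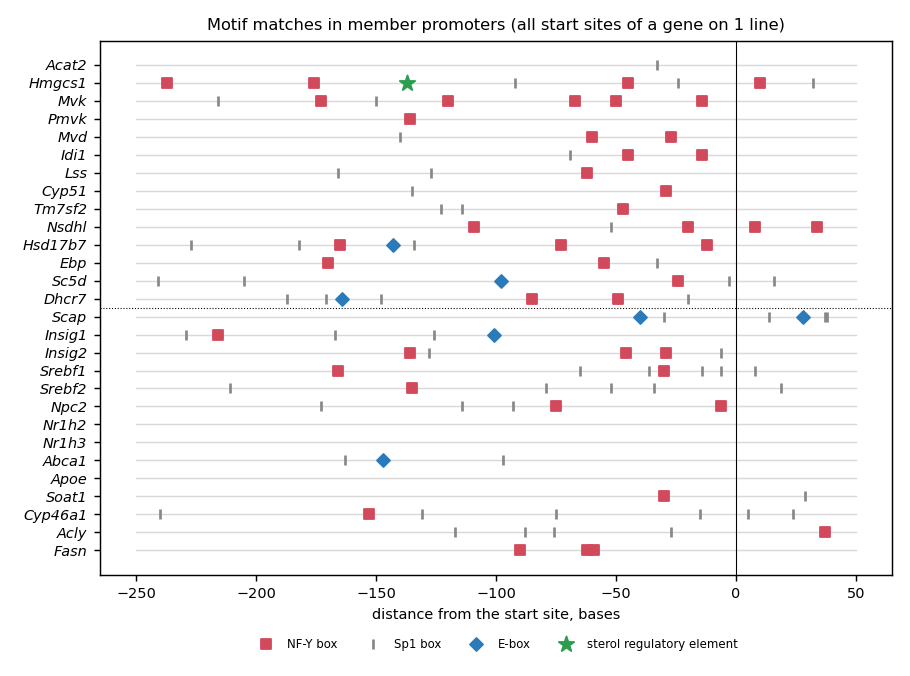
Positions of 4 motifs, on either strand, in the promoters of 28 members, as distance in bases from the start site; members above the dotted line are synthesis enzymes. NF-Y boxes (squares) appear on 13 of the 14 enzyme lines, and the strict sterol regulatory element (star) on that of Hmgcs1 alone.

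Sites for miR-137 itself were also searched. The mature strand that pairs with targets, printed with its seed (bases 2 to 8) in capitals, is encoded at chr3:118433901-118433923 on the + strand of GRCm38.p6.
mmu-miR-137-3p: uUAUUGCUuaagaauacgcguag
In the longest annotated 3' end after the stop codon, 2 of 17 synthesis enzymes held at least 1 site of 7 or 8 letters (AGCAATA, which pairs with bases 2 to 8, or one letter further along GCAATAA), and 5 of 18 other members did. These are 11.8% and 27.8%, beside 16.1% over all 12398 genes of at least 1 RPKM with such a sequence, and the differences were not tested. Median lengths searched were 900 nt for the enzymes, 1508 nt (1507.5) for the other members and 1244 nt over all genes. The 3' end searched can belong to another transcript of the gene than the one used for transcript length. For Hsd17b7 it holds 3498 nt, more than the whole transcript of 1446 nt used for length. Of the 5 enzymes that rose in Het, Nsdhl held a site, and of the 6 that rose in KO, 0 did. Among the other called members, Insig1 held 1 site and Insig2 held 0.

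The sites of 5 members are shown with 11 bases on each side and the site in capitals, whose coordinates on GRCm38 are given; Npc1 and Stard4 also held sites.
Insig1 (chr5:28077894-28077900, + strand): gaggcacactcAGCAATActgtgtcagcc
Nsdhl (chrX:72958244-72958250, + strand): atggctgcttgGCAATAAgccaaaaagag
Hsd17b7 (chr1:169951103-169951109, - strand): atgaattattaAGCAATAttcaatgctca
Apoe (chr7:19696149-19696155, - strand): ggtggttttgcAGCAATAgaaatgaagcc
Fasn (chr11:120806142-120806148, - strand): atggatgagagGCAATAAaaccttgaggt
Insig1 and Nsdhl were called higher in KO and in Het respectively, while the values of Hsd17b7 (6.10 RPKM in KO against 7.72 in WT), Apoe and Fasn did not pass the authors' test in the deposited tables.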

How the data were processed

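Cortex RNA from 12 libraries, 4 for each of 3 genotypes, was grouped by sample title. Per the submitters' processing notes, CASAVA 1.4, TopHat2 2.0.13, Cuffdiff 2.2.1 and the build mm9 were used; the sources used here state neither their roles nor the annotation. The authors deposited RPKM, 1 value per genotype and table. Per the file headers, p-values and adjusted p-values (q-values) were deposited for each gene. Genes with p below 1 were taken as tested, a choice made here. Depth is unknown, and no test across genes was run beyond the authors'. The smallest p is 5e-05, and 0 value columns lacked a genotype.

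Log2 folds used a pseudocount of 1 RPKM and a minimum of 1 RPKM in either genotype. Named genes are all members by role, with every genotype's value for called and role-defining ones, the other pathway genes called in any comparison, and the 2 most abundant genes of each marker list with called markers beside a result; the receptors Vldlr, Lrp1 and Lrp8 were added after their values were seen, and some genes that the rule names are not reported here. Members and lists were chosen with earlier results of these data known. Transcript lengths (90.6% of genes in Het against WT, 91.0% in KO against WT) and 3' ends came from GENCODE M21, promoters and miR-137 from RefSeq, all on GRCm38, joined by symbol; the site search, the overlap of exons and the length bins were added after seeing the data. Reads shared with processed pseudogenes were not examined. Work was done in Python 3.11.15, pandas 2.3.3 and numpy 2.4.6, and the fold and adjustment steps were tested on simulated data.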

Additional observations from a re-analysis of the deposited data

How the results depend on the processing

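No paired analysis was possible because the deposited tables hold 1 pooled value per genotype, and for the same reason no library could be left out in turn. In Het against WT, the 5 members higher became 3 at an adjusted p below 0.01 and 0 with an absolute log2 fold of at least 0.5. In KO against WT, that minimum fold left 3 of 7 members higher and 0 of 1 lower. Adjusting over the 3 comparisons together kept 12 of 13 member calls; the call lost was Sqle in KO. The median log2 fold of all members, 0.20 in Het and 0.15 in KO against WT, stayed within 1.5 times of these values under 2 other pseudocounts, other minimum levels, 2 ways of recentring and the values of the other tables. Between KO and Het the median was -0.0083, and it was 0.0038 over members of at least 5 RPKM and 0.0035 when recentred within transcript length bins, a setting added after seeing the data. Unknown depth limits the low genes most, among them Nr1h3.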
